A study of Mus musculus with 3 samples.

Results

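The 6 genes described here encode RNA-binding proteins that act on messenger RNA stability and translation: Elavl1, Khsrp, Tia1, Tial1, Celf1 and Pum2. They were taken by gene name from a list of positions at which RNA had been crosslinked in mouse thymocytes, whatever segment of the gene a position lay in. They account for 1008 of 462392 listed positions and 6 of 14592 gene names. The method was iCLIP, in which ultraviolet light links a protein to the RNA it touches and the end of each cDNA marks the linked base. The 3 libraries came from total naive thymocytes of C57BL/6JBabr mice irradiated with 300 mJ/cm2, and crosslinked RNA was pulled down with an antibody called Brf1/2, older names for ZFP36L1 and ZFP36L2.

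The knockout cells carried the conditional double knockout of Zfp36l1 and Zfp36l2 (DCKO, 1 library), and the control cells were WT (2 libraries). Neither the Cre line behind the deletion nor the ages of the animals are stated in the labels. The list gives 1 count per position and does not say from which library it came. DCKO and WT were therefore not compared, the depth of each library is unknown, and the counts below have no replicate error. What follows is a description of where counts fell, with no test between groups.

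ZFP36L1 and its relatives ZFP36 and ZFP36L2 are zinc finger proteins that bind AU-rich elements, short adenosine and uridine repeats in 3′ untranslated regions (UTRs), and recruit enzymes that shorten the poly(A) tail. Their preferred core is UAUUUA, written TATTTA in DNA letters. The proteins encoded by the 6 genes read related sequences. ELAVL1 (HuR) stabilises many AU-rich mRNAs, KHSRP (KSRP) promotes their decay, and TIA1 and TIAL1 (TIAR) bind U-rich RNA, affect splicing and repress translation under stress. CELF1 is best known for GU-rich elements and PUM2 for the Pumilio element, so the name AU-rich element binding protein describes the first 4 genes more closely than those last ones.

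The sequences that the results turn on are the windows of 29 bases around the strongest crosslinked positions, read from the RefSeq genome of build GRCm38.p6 on the strand of the gene, 5′ to 3′. Elavl1 and Pum2 are shown first because their strongest 3′ UTR windows hold TATTTA, which is in capitals. Not all windows are printed. Among those left out, a Pum2 3′ UTR window (chr12:8750172-8750200) holds a run of T and no TATTTA. A Celf1 3′ UTR window (chr2:91016518-91016546) holds neither TATTTA nor a run of 5 T.

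Elavl1, 3′ UTR, chr8:4285779-4285807, minus strand: atTATTTATTTATTTATTTAtttttattt

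Pum2, 3′ UTR, strongest, chr12:8749855-8749883, plus strand: aaatttttaaggttcttgtgtaTATTTAg

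Pum2, 3′ UTR, next, chr12:8749812-8749840, plus strand: tttttaaagcaaaacTATTTAttgacttt

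Pum2, intron, chr12:8695398-8695426, plus strand: ttgtttttttggttttTATTTATTTAttt

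The windows of Celf1 and Tial1 below have no TATTTA, and capitals mark runs of 5 or more T.

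Celf1, 3′ UTR, chr2:91016735-91016763, plus strand: ttttcTTTTTTctttcTTTTTTTTTTTTc

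Celf1, 3′ UTR near the stop codon, chr2:91013625-91013653, plus strand: tttgttttgttttgtttcTTTTTcccttt

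Celf1, intron, chr2:90963991-90964019, plus strand: ttttcaacatcacccTTTTTTTTTTTTTg

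Tial1, 3′ UTR, chr7:128441173-128441201, minus strand: cTTTTTatttctaatttgTTTTTTctttg

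In the strongest 3′ UTR window of Khsrp and the strongest window of Tia1, which lies outside the 3′ UTR, only the crosslinked base is in capitals, because neither window holds TATTTA or a run of 5 T.

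Khsrp, 3′ UTR, chr17:57022149-57022177, minus strand: tgttgtggggacacCatgatctgaatgtt

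Tia1, labelled coding, chr6:86420239-86420267, plus strand: ttttaagaatacttTattgggtcagttgt

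The markers matched the labelled cell type. All 10 thymocyte markers were listed, with 11 to 2270 counts each and 4777 in all. The 4 B cell markers summed to 9 counts (0 to 6 each, Cd79a at 0), the 4 myeloid markers to 18 (0 to 16, Csf1r and Cd14 at 0) and the 4 thymic epithelial markers to 10 (0 to 6, Foxn1 at 0). The whole list summed to 814493 counts, and most positions were thin: 50.5% had a count of 1, 44.0% a count of 2 and 5.45% a count of 3 or more. The 6 genes had nearly the same spread, with 47.1% of positions at 1, 47.1% at 2 and 5.75% at 3 or more.

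Elavl1, Celf1, Pum2, Khsrp and Tial1 had at least 1 site in the 3′ UTR, and Tia1 had none. All 6 had at least 1 listed 3′ UTR position, as did 45.9% of protein-coding genes in the list. A site is a position to which the authors gave a false discovery rate below 0.05. The list also gives each position's summed value, the count added up within 15 bases on either side. Across all protein-coding genes with a listed position, 17.7% had a 3′ UTR site (2222 of 12541). That share depends on how many counts a gene has: among genes with 0.5 to 2 times the total of each member it lay between 35.6% for Khsrp and 68.1% for Pum2. The members held 122 of the 16591 3′ UTR sites of the list, with 296 counts. Celf1 had 49 of these sites, Elavl1 40, Pum2 27, and Khsrp and Tial1 3 each.

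By summed count at 3′ UTR sites the order was Elavl1 with 131, Celf1 with 99, Pum2 with 56, and Khsrp and Tial1 with 5 each. Elavl1 ranked 30 among all protein-coding genes on this measure, Celf1 53 and Pum2 128, while Khsrp and Tial1 shared rank 1399 with many others. The median over all genes with a 3′ UTR site was 8 counts on 4 sites. Elavl1, Celf1 and Pum2 lay far above that median, and Khsrp and Tial1 lay below it. These sums are not corrected for UTR length or for a gene's total count. Per kilobase of 3′ UTR, Elavl1 ranked 160, Pum2 277, Celf1 344, Khsrp 1244 and Tial1 1566 among 2100 genes. By total count in all segments Pum2 ranked 76, Celf1 145, Elavl1 711, Tia1 1210, Tial1 1423 and Khsrp 2255.

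The share of a gene's counts that fell in the 3′ UTR also differed widely. It was 78.7% for Elavl1, 37.1% for Khsrp, 31.6% for Celf1, 16.8% for Pum2, 10.7% for Tial1 and 1.53% for Tia1. Over the 6 genes together it was 28.1%, against 13.2% over all protein-coding genes, and the intron share was 63.3% against 76.9%. Introns therefore held most counts of Pum2 (78.1%), Celf1 (66.6%), Tial1 (63.4%) and Tia1 (60.3%), while in Elavl1 the 3′ UTR did. Sites made up 49.8% of the listed 3′ UTR positions of the 6 genes, against 37.8% over all genes, and 31.6% of their intron positions, against 28.5%. Of their 88 positions labelled coding 18 were sites, against 19.4% of such positions over all genes. Their 1 position in a 5′ UTR was not a site, and 21.1% of such positions were over all genes. Set against genes of like total count, only 17 of 1348 other genes had a larger 3′ UTR share than Elavl1, 47 of 494 a larger one than Celf1 and 50 of 288 a larger one than Pum2. A larger share was present in 330 of 2699 such genes for Khsrp, 863 of 2118 for Tial1 and 1435 of 1925 for Tia1.

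**Figure D1:**
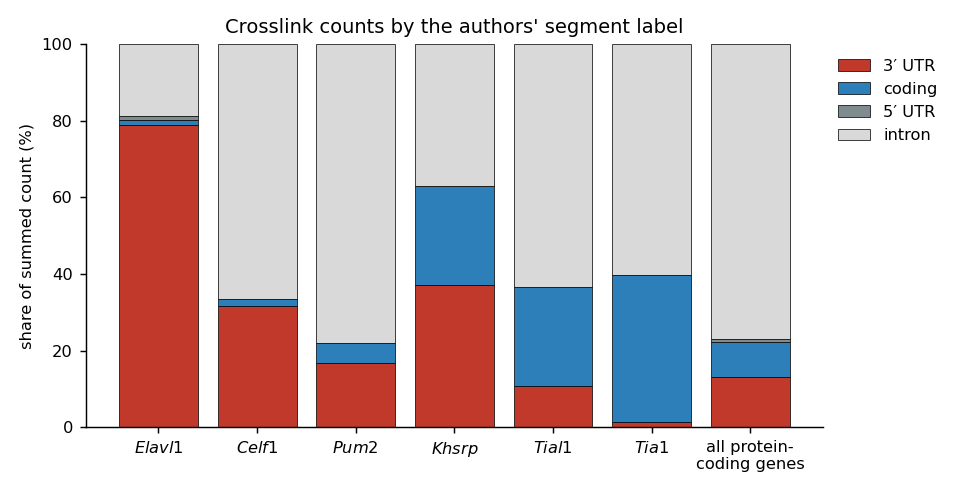
Share of each gene's summed count (percent) that fell in the 3′ UTR, coding sequence, 5′ UTR and intron, for the 6 genes and for all protein-coding genes. Elavl1 has 78.7% of its counts in the 3′ UTR and Tia1 1.53%, with 13.2% over all genes.

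Introns are longer than 3′ UTRs, so densities are given as well. They use segments of the GENCODE annotation in place of the authors' labels. Introns here are gene bases in no exon of a coding transcript, so they include 34 counts of Tia1 and 12 of Tial1 that were labelled coding. They also include 4 counts of Tial1 and 4 of Pum2 that were labelled 3′ UTR. Those 34 counts of Tia1, and 36 labelled intron, lie in exons of transcripts annotated as retained introns. So do those 12 counts of Tial1 and 24 labelled intron. Per kilobase, Elavl1 had 38.6 counts in its 3′ UTR and 1.14 in its introns, a ratio of 33.9. The ratio was 5.49 for Celf1 (25.4 and 4.63 counts per kilobase), 5.16 for Pum2 (37.4 and 7.24), 4.01 for Khsrp (16.1 and 4.02) and 1.27 for Tial1 (6.32 and 4.99). Tia1 was the exception, with 1.32 counts per kilobase in the 3′ UTR and 4.57 in introns, a ratio of 0.289. Elavl1 and Pum2 thus had 3′ UTR densities close to each other, and they differed more in the introns, where Pum2 was the densest of the 6 genes and Elavl1 the thinnest.

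**Figure D2:**
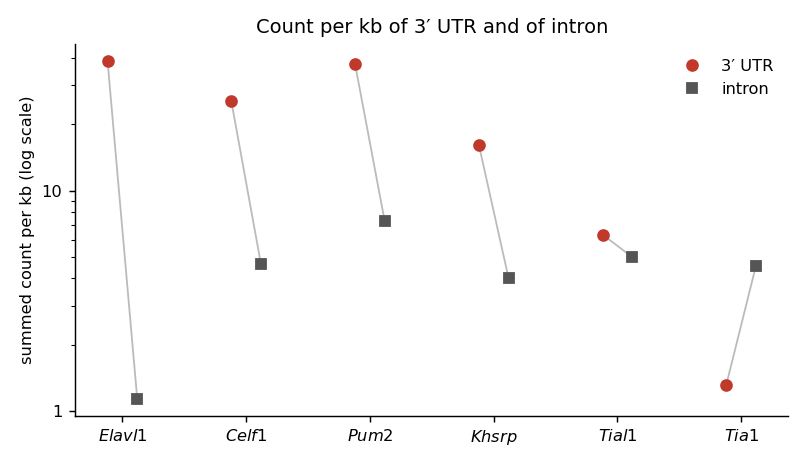
Counts per kilobase of 3′ UTR and of intron for each of the 6 genes, by GENCODE segments. Introns are gene bases in no exon of a coding transcript. The 3′ UTR value is above the intron value in every gene except Tia1, where it is 1.32 against 4.57.

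Elavl1, whose protein protects AU-rich mRNAs from decay, had the highest single counts of the 6 genes. The gene (ENSMUSG00000040028.10) lies on the minus strand at chr8:4285382-4325413, and its longest 3′ UTR spans 4218 bases at chr8:4285382-4289599. It had 90 listed positions with 207 counts, of which 62 positions and 163 counts lay in the 3′ UTR, 39 counts in introns, 3 in coding sequence and 2 in the 5′ UTR. Of the 62 positions in the 3′ UTR, 64.5% were sites, against 37.8% of 3′ UTR positions over all genes. The lowest summed value of a site in this UTR was 6, and the highest of a position that was not a site was 5.

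The Elavl1 sites formed 3 clusters when sites at most 15 bases apart were joined. The main cluster covered 54 bases at chr8:4285761-4285814, between 3786 and 3839 bases after the stop codon and 379 bases before the end of the UTR. It held 31 sites and 116 counts, which is 88.5% of the counts at 3′ UTR sites and 56.0% of all Elavl1 counts. Every listed position in this stretch was a site. Its largest counts were 10 at 3807 bases and 10 at 3811 bases after the stop codon, then 9 at 3815 and 9 at 3827 bases. Together these 4 positions had 38 counts, so the other 27 positions, with 1 to 5 counts each, held most of the signal.

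**Figure D3:**
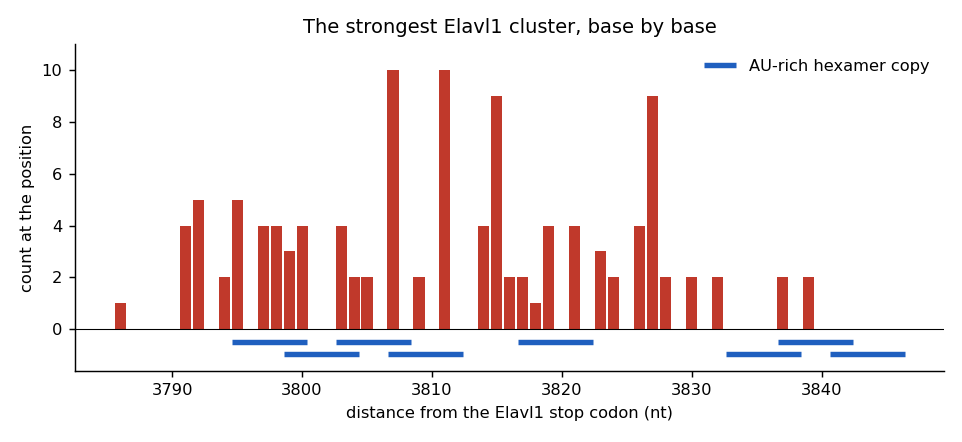
Count at each listed position of the main Elavl1 3′ UTR cluster, by distance from the stop codon in bases, with the copies of TATTTA marked. The 2 positions with 10 counts lie at 3807 and 3811 bases, among 8 copies that span 3795 to 3846 bases.

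This cluster lies on the run of TATTTA copies printed above. The motif was searched on the strand of the gene only, with overlapping copies counted separately, and a site was taken as near it when a whole copy lay within 20 bases on either side. The 3′ UTR holds 10 copies, of which 8 lie between 3795 and 3846 bases after the stop codon. All 31 sites of the cluster were near a copy, and none of the other 9 sites was. The other 2 copies, at 1605 and 1638 bases after the stop codon, had no listed position near them. The share of Elavl1 3′ UTR sites near TATTTA was 77.5% (31 of 40, 95% Wilson interval 62.5% to 87.7%), while 3.58% of the bases of this UTR lie as near to a copy. Over all genes, 28.9% of 3′ UTR sites were near TATTTA (4787 of 16591). Such intervals cover counting error only, and adjacent sites are not independent of each other, so they are too narrow. Over all 62 listed 3′ UTR positions of Elavl1 the share was 50%, since no position outside the cluster was near a copy.

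The crosslinked base was T at 23 of the 31 sites of the cluster and A at 5. The cluster lies in the 3′ UTR of 1 of the 2 annotated coding transcripts. The other transcript has a 3′ UTR of 1257 bases, which contains the remaining 9 sites but not the cluster. Those 9 sites were weaker: 6 sites with 9 counts lay 17 to 35 bases after the stop codon, and 3 sites with 6 counts lay 1178 to 1181 bases after it. Each of these clusters lay on a run of T and not on TATTTA, as in the window chr8:4289551-4289579 of the first.

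Elavl1, 3′ UTR near the stop codon, minus strand: ctttccttcTTTTTTTTTTccttttcttt

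The exact 29 bases of the main Elavl1 window occur 5 times in the genome, whereas the 50 bases downstream of its strongest position occur once. All 40 Elavl1 3′ UTR sites lie in sequence that the reference marks as repetitive or of low complexity. Reads that reach past the repeat can be placed at this gene. The labels do not say how reads with several matches were handled, so the exact size of these counts is uncertain.

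**Figure D4:**
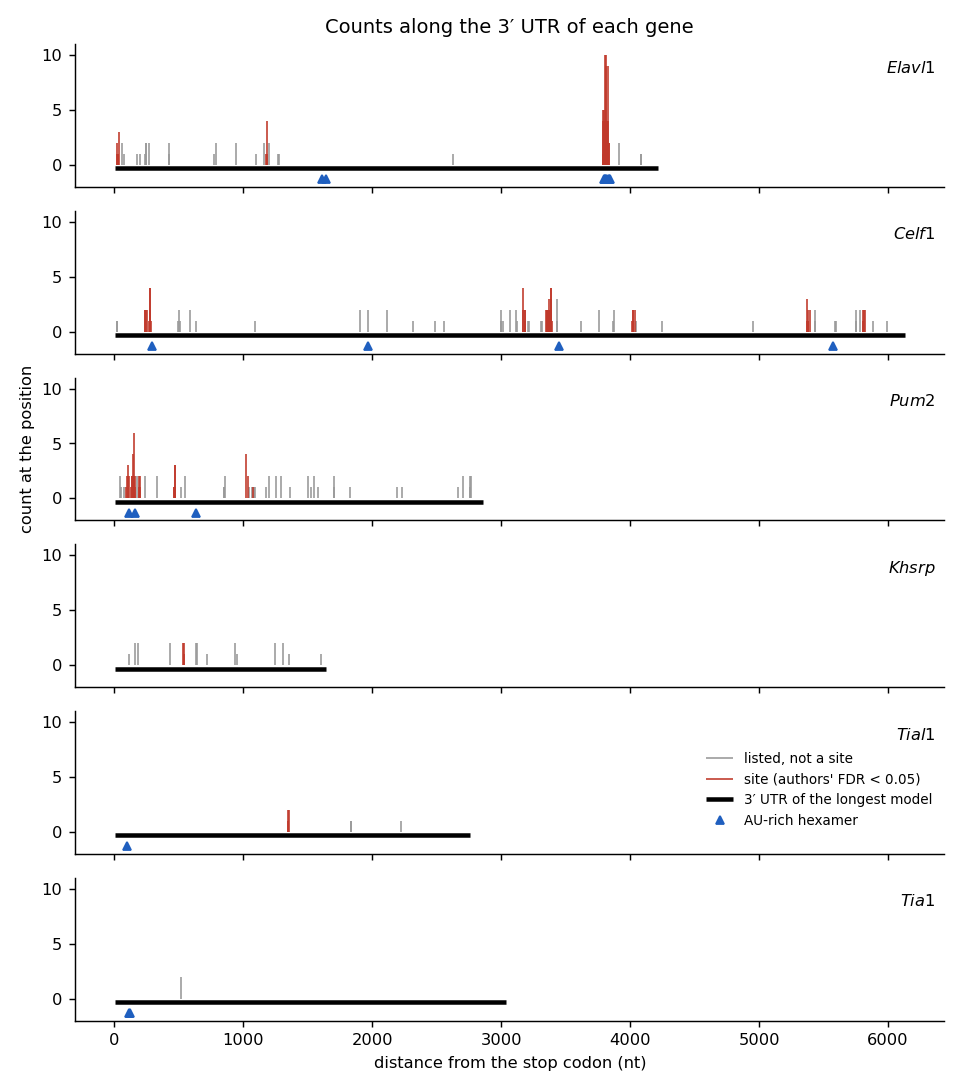
Counts at positions that the authors labelled 3′ UTR in the 6 genes by distance from the stop codon in bases. Only positions in the longest 3′ UTR of each gene are drawn, with sites and other positions apart and copies of TATTTA marked. The Elavl1 counts pile up at 3786 to 3839 bases, the strongest Pum2 cluster lies 128 to 161 bases after the stop codon, and Tia1 has 1 position with a count of 2.

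Khsrp, whose protein recruits the decay machinery to AU-rich mRNAs, had few counts and no AU-rich cluster. The gene (ENSMUSG00000007670.10, minus strand, chr17:57021051-57031522) had 42 listed positions with 70 counts, none above 2. The 3′ UTR, of 1642 bases at chr17:57021051-57022692, took 26 counts on 16 positions, as many counts as the introns with 26 on 17 positions, and coding sequence had 18 counts on 9 positions. Of the 3′ UTR positions 18.8% were sites, below the 37.8% of all genes. The 3 sites lay within 11 bases, 530 to 540 bases after the stop codon, with 5 counts, and none had T as the crosslinked base. This UTR holds no copy of TATTTA. The 3 sites had a false discovery rate of 0.0225 and a summed value of 5, the lowest value called there, and the highest value not called was 4.

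Tia1, whose protein gathers stalled mRNAs in stress granules, had few counts in its 3′ UTR. The gene (ENSMUSG00000071337.11, plus strand, chr6:86404219-86433405) had 89 listed positions with 131 counts. Only 1 position was labelled 3′ UTR, with a count of 2, 515 bases after the stop codon of a UTR of 3038 bases. A further position with a count of 2, labelled coding, lies in this UTR by GENCODE, 166 bases after the stop codon, and neither was a site. This UTR holds 2 copies of TATTTA, at 111 and 115 bases after the stop codon, and no position was listed near them. A further 79 counts were labelled intron, with no site among 56 positions, and 50 were labelled coding. The highest summed value among the intron positions, 4 at chr6:86425633, had a false discovery rate of 0.457. Intron positions of Tia1 with a summed value of 3 had 0.128, so the rate did not fall as the value rose.

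Many positions that the authors labelled coding in Tia1 are not in coding sequence of GENCODE vM21. Of 32 such positions, 23 lie in exons of transcripts annotated as retained introns, and so do 28 of the 56 positions labelled intron. The only Tia1 sites, 3 with 6 counts at chr6:86420248-86420263, lie in such exons. The strongest of them had a count of 4, and 1 of the 3 was near TATTTA. A further 7 positions inside the gene body carry no gene name in the list and are not counted here.

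Tial1, the close relative of Tia1, had 10.7% of its counts in the 3′ UTR, against a median of 7.62% among genes of like total. The gene (ENSMUSG00000030846.15, minus strand, chr7:128439777-128461717) had 74 listed positions with 112 counts, of which 12 were labelled 3′ UTR, 29 coding and 71 intron. Of those 12 counts, 4 on 4 positions lie by GENCODE outside the 3′ UTR, in exons of nonsense-mediated decay and retained-intron transcripts. The 3 sites in the 3′ UTR, with 5 counts, lay 1345 to 1350 bases after the stop codon beside runs of T, in the 3′ UTR of 1 of the 6 coding transcripts. The UTR of 2756 bases holds 1 copy of TATTTA, 93 bases after the stop codon, with no listed position near it. Tial1 thus had no site near the motif, but with only 3 sites, all in 1 cluster, the upper bound of the interval is 56.1%. Khsrp had none either, but its 3′ UTR holds no copy, so no site there could be near one.

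Tial1 had 17 sites outside the 3′ UTR by the authors' labels. The strongest position of the gene, with 6 counts, was labelled intron at chr7:128443957, in a cluster of 3 sites and 9 counts. That cluster and another at chr7:128444110-128444123 lie in an exon of a retained-intron transcript. Of the clusters labelled coding, those at chr7:128447982-128447988 and chr7:128448006-128448016, with 5 counts each, also lie in retained-intron exons. The one at chr7:128442353-128442358, with 2 sites and 4 counts, lies 175 to 180 bases into the 3′ UTR by GENCODE. Counting by GENCODE, Tial1 would have 5 sites in the 3′ UTR.

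Celf1, whose protein binds GU-rich elements and promotes mRNA decay, had the most 3′ UTR sites of the 6 genes but few on AU-rich motifs. The gene (ENSMUSG00000005506.16, plus strand, chr2:90940382-91019497) had 293 listed positions with 494 counts. The 3′ UTR, 6132 bases at chr2:91013366-91019497, had 91 positions with 156 counts, introns had 329 counts, and coding sequence had 9. The 49 sites formed 7 clusters spread between 236 and 5819 bases after the stop codon. They were more even than those of Elavl1: the strongest cluster held 41.4% of the counts at 3′ UTR sites, against 88.5% in Elavl1, and no 3′ UTR site had more than 4 counts.

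The strongest Celf1 cluster covered 49 bases at chr2:91016711-91016759, 3346 to 3394 bases after the stop codon, with 19 sites and 41 counts. T makes up 79.6% of its bases, its longest run of T is 12, and it holds no TATTTA. The next, at chr2:91013632-91013651, had 6 sites and 14 counts and lies near the stop codon. It holds the only Celf1 sites near TATTTA, 5 of 49, or 10.2% (Wilson interval 4.44% to 21.8%), below the 28.9% of all 3′ UTR sites. This UTR holds 4 copies of the motif, and 2.35% of its bases lie as near to one. A run of 6 T lay within 20 bases of 25 of the 49 sites, or 51.0%, against 32.0% over all genes. Adjacent sites can share a run, and 19 of the 49 sites lie in the strongest cluster, so this share rests on few separate places. TGTTTG, chosen as a GU-rich motif, was near 7 of the 49 Celf1 sites, or 14.3%, near 17 of the 40 Elavl1 sites, or 42.5%, and near 7.56% of sites over all genes. The 3′ UTR of Celf1 holds 8 copies of TGTTTG and that of Elavl1 3. Sites of 1 cluster can share a copy, and these shares were not counted by cluster or set against the bases of each UTR.

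Of the 49 Celf1 sites 44 lie in sequence marked as repetitive or of low complexity. The printed window of the strongest cluster occurs 6 times in the genome, and the 50 bases downstream of it once. Celf1 also had 86 sites in introns, in 29 clusters. The strongest of these, at chr2:90963998-90964006, had 5 sites and 25 counts and the highest count of the gene, 7, directly before a run of 13 T. Of the intron sites 17.4% were near TATTTA, against 22.1% of intron sites over all genes, and 46.5% were near a run of 6 T, against 34.6%.

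Pum2, whose protein represses mRNAs through the Pumilio element, came between Elavl1 and Celf1 in how far its sites lay on AU-rich motifs. The gene (ENSMUSG00000020594.14, plus strand, chr12:8674134-8752581) had 420 listed positions with 661 counts, the most of the 6 genes. By the authors' labels the 3′ UTR had 65 positions with 111 counts, introns had 516 counts, and 34 were coding. Of those 65 positions, 2 with 4 counts lie by GENCODE outside the 3′ UTR, which spans 2861 bases at chr12:8749721-8752581. Of the 27 sites in the 3′ UTR, 11 were near TATTTA, or 40.7% (Wilson interval 24.5% to 59.3%). Over all listed 3′ UTR positions of Pum2 the share was 16.9% (11 of 65). The UTR holds 3 copies of the motif, and 3.77% of its bases lie as near to one.

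The 2 strongest of the 6 Pum2 clusters lay close to the stop codon and each had TATTTA beside it. The first, at chr12:8749848-8749881, 128 to 161 bases after the stop codon, had 10 sites with 24 counts and a highest count of 6. The second, at chr12:8749812-8749832, 92 to 112 bases after the stop codon, had 5 sites with 10 counts and a highest count of 3. They lie in the 3′ UTR of all 7 coding transcripts. In the first printed window the motif starts 8 bases after the crosslinked base, and in the second it starts 1 base after it. The third copy of the motif, 633 bases after the stop codon, had no site near it. The Pumilio element TGTANATA lay within 20 bases of 2 of the 27 sites, or 7.41%, and of 2.34% of sites over all genes.

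The largest group of Pum2 counts was not in the 3′ UTR. An intron cluster at chr12:8695384-8695442 had 22 sites and 45 counts, with 16 sites near TATTTA and 4 copies of the motif inside it. Its counts were spread thinly, with no position above 4. Another intron cluster, at chr12:8715023-8715037, had 11 sites and 20 counts on a run of 26 T. Over all 116 intron sites of Pum2, 27.6% were near TATTTA, and 47.4% were near a run of 6 T. The 3 sites labelled coding, with 7 counts at chr12:8674345-8674352, lie in the 5′ UTR by GENCODE.

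**Figure D5:**
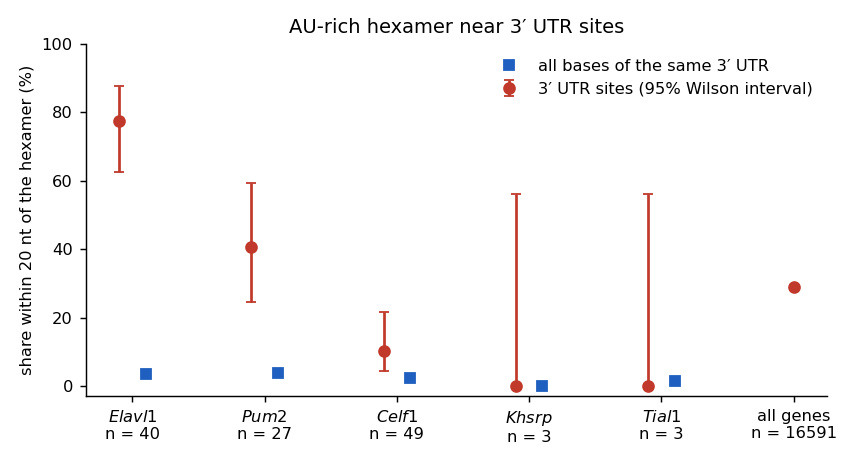
Share of 3′ UTR sites with TATTTA within 20 bases (percent) for each gene with a site and for all genes, with 95% Wilson intervals. Elavl1 is at 77.5%, Pum2 at 40.7% and Celf1 at 10.2%, against 28.9% of all sites. The 3′ UTR of Khsrp holds no copy, so its interval carries no information.

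Of the 122 sites of the 6 genes, 38.5% were near TATTTA, and without Elavl1 the share was 19.5% of 82. By clusters in place of sites, 1 of 3 in Elavl1, 2 of 6 in Pum2 and 1 of 7 in Celf1 had sites near the motif, so the differences in share between these genes rest on few separate places and were not tested. Of the 20 copies of TATTTA in the 3′ UTRs of the 6 genes, 11 had a site near them: 8 in Elavl1, 2 in Pum2 and 1 in Celf1. These copies are not separate places: the 8 in Elavl1 share the sites of 1 cluster, and the 2 in Tia1 overlap. The same share of copies over all genes was not computed. Copies without a site were present in Elavl1, Tia1, Tial1, Celf1 and Pum2.

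Other genes for RNA-binding proteins, among them relatives of the 6, were counted in the same way. Of a list of 48, chosen for AU-, U- or GU-rich and related binding, 44 had a listed position and 20 had a 3′ UTR site, or 45.5%, against 17.7% of all protein-coding genes. This was not matched for total count, on which the share with a site depends. A 3′ UTR site near TATTTA was present in 7 of these 20, and the same share of genes over the whole list was not computed. The highest summed counts at 3′ UTR sites were those of Zfp36l1 with 213 on 59 sites, Zfp36 with 127 on 45, Zfp36l2 with 113 on 30, Celf2 with 69 on 32 and Msi2 with 57 on 32. Elavl1, with 131, lay between the first and the second of these. Celf2, a relative of Celf1, had no site near TATTTA, and Msi2, a translational regulator, had 1.

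The genes whose counts were divided over segments most like those of Elavl1, among 1348 of like total, were Nyap1 and Rest, with 78.7% and 79.2% in the 3′ UTR. Nyap1 had 27 of 31 3′ UTR sites near TATTTA and Rest 1 of 23, so a like division over segments went with different shares of sites near TATTTA. No other motif was searched in these genes. The nearest to Celf1 were Stk4 and Kremen1, and those nearest to Pum2 were Akap13 and Aff1. For Khsrp they were Srsf10 and Hjurp, for Tia1 Srsf5 and Tfrc, and for Tial1 Paxbp1 and Hnrnpa3. Likeness was the Euclidean distance between the 4 segment shares, which was 4.41 percentage points for Nyap1 and between 0.838 and 4.44 for the others.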

How the data were processed

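The authors deposited 1 list of crosslinked positions, with segment and gene name assigned by them. The submitters' processing notes name Bowtie, with no version, and GRCm38. The deposited score of a position is a whole-number count signed by strand, and a further score sums it within 15 bases, which was recomputed at all 1008 member positions with the same result. The deposited p-value was not used, and the deposited FDR, a score, served only to define sites, by a cutoff of 0.05 applied here. How the FDR was derived is not stated.

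Positions count from 0 and were turned to 1-based coordinates: T was then at 65.4% of plus-strand and 66.1% of minus-strand 3′ UTR sites, against 54.5% and 59.0% without this. Annotation was GENCODE vM21, and sequences came from RefSeq (GRCm38.p6). Introns for densities were gene bases in no exon of a coding transcript. Named genes were the 6 members, the 5 listed RNA-binding protein genes with the highest 3′ UTR site counts, and the 2 nearest genes by segment shares; markers at 0 counts were named as well. Members and lists were chosen with earlier results of these data known. The counting steps were tested on simulated data. Python 3.11.15, pandas 2.3.3 and pysam 0.24.0 were used.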

Additional observations from a re-analysis of the deposited data

How the results depend on the processing

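The list is thin and pooled, so libraries could not be left out in turn. No paired analysis was possible because the list has no library column and no result comes from a test. Of 30 alternatives run on results over the 6 genes, 15 moved a value beyond its limit (1.5 times for counts, the Wilson interval for shares), and of 114 on single genes 41 did. Genes with a 3′ UTR site numbered 3 when a site also needed a count of at least 3, against 5 by the false discovery rate alone. Their 122 sites became 245 with all listed positions and 33 with a count of at least 3. The 18 clusters became 103 with all positions and 38 when joined within 5 bases. The RNA-binding protein genes with a site numbered 31 with all positions, against 20. The 38.5% of sites near TATTTA became 20% of all positions, 66.7% of those with a count of at least 3, 28.7% within 10 bases, 47.5% within 50 bases, 28.7% for TATTTAT, 52.7% weighted by count and 19.5% without Elavl1. The 3′ UTR share of counts, 28.1%, was 24.3% of positions and 40.3% of counts at sites. By gene, the share for Elavl1 (77.5%) was 50% over all positions. It was 91.2% at a false discovery rate below 0.01, 89.5% at a count of at least 3 and 88.5% weighted by count. For Celf1 (10.2%) it was 25% (2 of 8) at a count of at least 3, 2.04% within 10 bases and 0 for TATTTAT. For Pum2 (40.7%) it was 16.9% over all positions, 14.8% within 10 bases, 70.4% within 50 and 14.8% for TATTTAT. The 3 Khsrp sites were lost at a false discovery rate below 0.01.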
